A study of Mus musculus with 5 samples.

Results

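The Mef2 genes, Mef2a, Mef2b, Mef2c and Mef2d, were examined for binding of the bHLH transcription factor NEUROD2 in the developing mouse cortex. Each gene was taken with the span of its longest transcript in GENCODE release M21 on the mm10 build and with 50 kb beyond either end. All NEUROD2 peaks with a midpoint inside these 4 windows were kept, and overlapping peaks were merged. This gave 71 peaks in 40 regions, out of 94621 peaks in 53833 regions in the whole data set. Peaks of at least 2 antibodies fell together in 23 of the 40 regions, and these are called shared regions below. Over the genome there were 32261 shared regions, so the Mef2 loci held 0.0713% of them.

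Chromatin came from the cerebral cortex of BALB/c embryos at E14.5, pooled from several litters for each precipitation. It was precipitated with 3 antibodies against NEUROD2, named ab1 (raised in mouse), ab2 and ab3 (both raised in rabbit), and with a mouse and a rabbit antibody against GFP as controls, and each precipitate was sequenced as 1 library. The controls entered the peak calling only and were not analysed here. Each antibody thus measured the same tissue once, without a replicate and without another condition to compare, so no test between groups was possible and all comparisons below are descriptions. With ab1 51841 peaks were called, with ab2 35310 and with ab3 7470, and the depth in reads was not used here. The tissue was dissected and not sorted, so the lists do not show which cells of the cortex carry a bound site.

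MEF2 proteins are transcription factors with a MADS domain that bind an A and T rich element and regulate differentiation in muscle, neurons and immune cells. In neurons their activity is controlled by calcium. Class IIa histone deacetylases hold them in a repressive state, and kinases and the phosphatase calcineurin release them to activate genes that shape synapses. Mef2c is well known for its role in cortical neurons, where its loss disturbs neuronal distribution and synapses, whereas Mef2d and Mef2a are expressed broadly in the brain and Mef2b is the most divergent member. NEUROD2 itself recognizes the E-box, a short element whose loose form is CANNTG and whose extended form, as used here, has G or T at the third base, A or C at the fourth base and G or T right after the element.

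The sequences below are those around the extended E-box nearest to the midpoint in the 6 regions bound with all 3 antibodies and in the only shared region of Mef2a. They are shown because these regions carry the strongest or the only agreement between antibodies at each locus. Each run has 100 bases of the plus strand of GRCm38, and capitals mark the extended E-box on either strand. Regions are named by the distance of their midpoint from the TSS of the longest transcript, with a plus sign in the direction of transcription. The runs lie at chr7:67421670-67421769, chr8:70200189-70200288, chr13:83537304-83537403, chr13:83662437-83662536, chr3:88150613-88150712, chr3:88162529-88162628 and chr3:88221494-88221593, in this order.
Mef2a, 48.8 kb upstream: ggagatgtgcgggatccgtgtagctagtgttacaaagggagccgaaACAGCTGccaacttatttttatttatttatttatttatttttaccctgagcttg
Mef2b, +60.6 kb: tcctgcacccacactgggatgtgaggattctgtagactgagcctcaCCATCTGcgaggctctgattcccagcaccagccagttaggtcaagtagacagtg
Mef2c, +33.0 kb: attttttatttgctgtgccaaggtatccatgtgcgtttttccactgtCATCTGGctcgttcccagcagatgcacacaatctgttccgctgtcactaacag
Mef2c, +158 kb: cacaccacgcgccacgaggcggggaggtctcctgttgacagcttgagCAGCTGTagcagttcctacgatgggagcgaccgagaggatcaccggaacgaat
Mef2d, +8.39 kb: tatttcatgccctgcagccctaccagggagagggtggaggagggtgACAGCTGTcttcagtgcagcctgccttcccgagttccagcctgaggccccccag
Mef2d, +20.2 kb: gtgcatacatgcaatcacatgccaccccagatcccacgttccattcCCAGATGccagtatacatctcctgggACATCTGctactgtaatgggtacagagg
Mef2d, +79.1 kb: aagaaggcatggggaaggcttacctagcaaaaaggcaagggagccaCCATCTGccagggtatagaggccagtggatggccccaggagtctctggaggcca
The E-box lay 11 bp from the midpoint of the Mef2d region at +20.2 kb, 18 bp in the Mef2a region, 39 bp in the Mef2b region and 45 bp in the Mef2d region at +79.1 kb. In the other 3 regions it lay 101 to 138 bp away, outside the central 200 bp.

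NEUROD2 binding was spread unevenly over the family. Mef2c held 11 shared regions and Mef2d 7, whereas Mef2b held 4 and Mef2a 1. All 4 genes thus had at least 1 shared region, which was also the case for 67.6% of the 21938 protein-coding genes under the same rule, so the presence of a region alone does not set the family apart. Mef2d had 3 regions with peaks of all 3 antibodies, Mef2c 2, Mef2b 1 and Mef2a none. Among protein-coding genes, 26.7% had at least 1 such region. The number of shared regions rests on the pair of ab1 and ab2. Every one of the 23 had peaks of both, as had 32210 of the 32261 shared regions of the genome. Without ab1 or without ab2, only the regions with all 3 antibodies could therefore be counted, 0 for Mef2a, 1 for Mef2b, 2 for Mef2c and 3 for Mef2d.

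**Figure D1:**
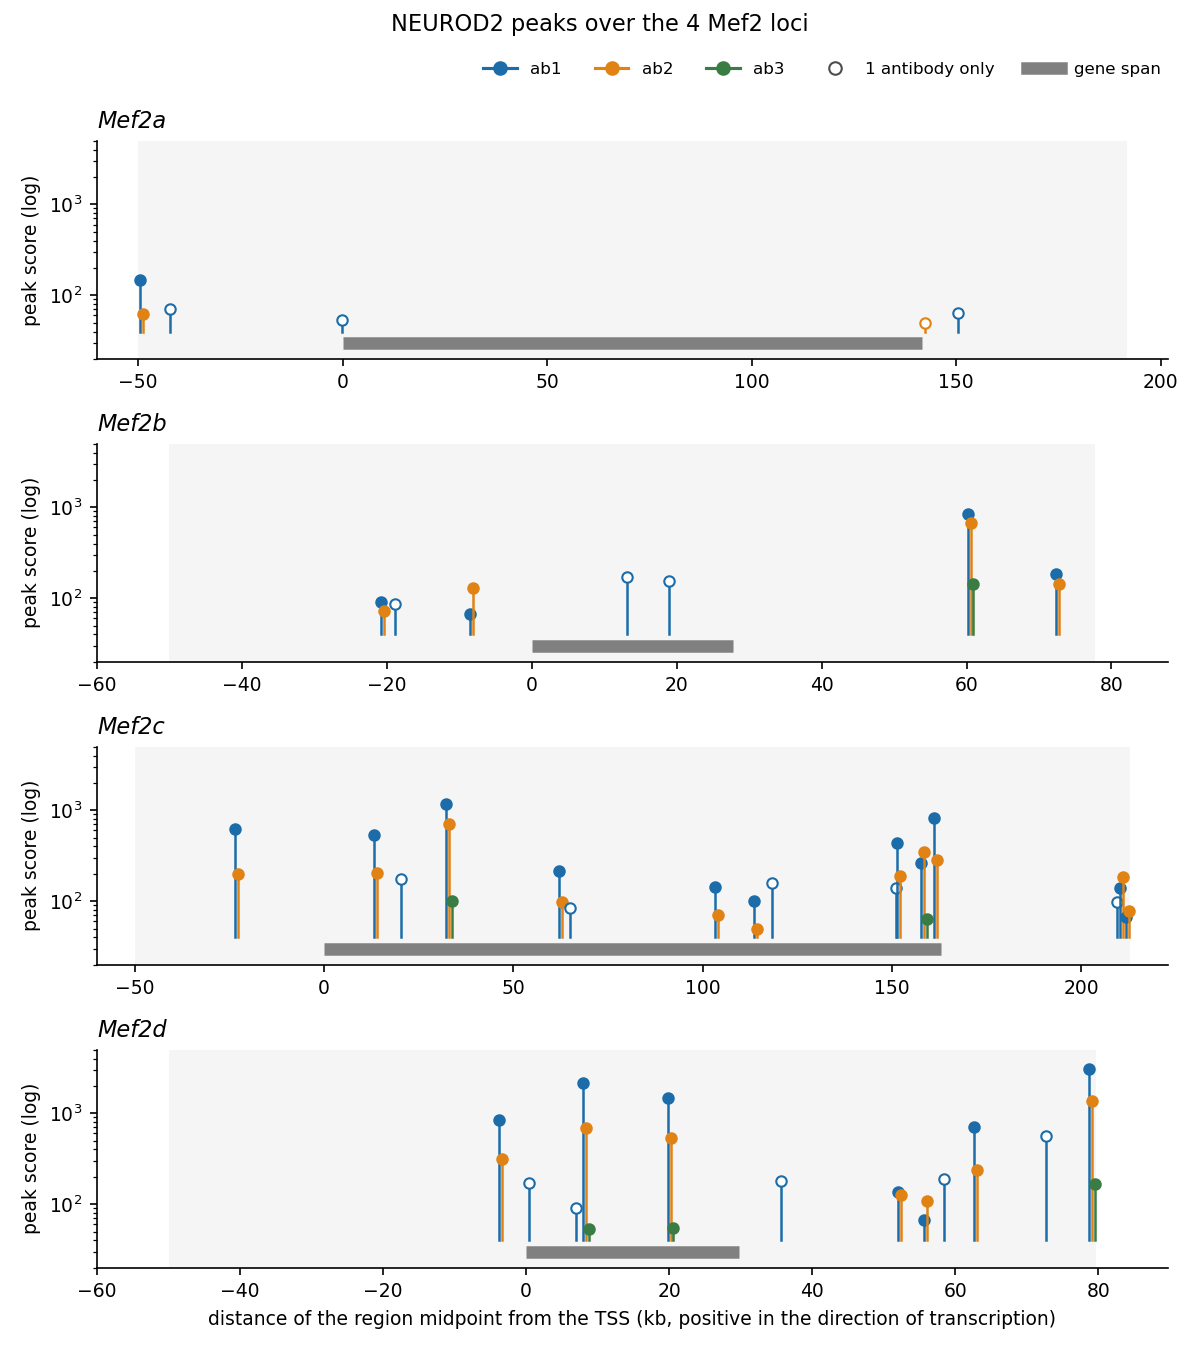
Peaks over the 4 Mef2 loci, with the distance of each region's midpoint from the TSS in kb on the x axis (each locus has its own scale) and the highest peak score of each antibody on a log y axis. Colours mark the antibodies, drawn side by side for legibility, open circles mark regions of 1 antibody, the grey bar is the gene and the shaded area the window. The Mef2c regions run through the whole gene, the highest Mef2d scores lie at +8.39, +20.2 and +79.1 kb, and Mef2a has no shared region in the gene.

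The windows differ in length, from 128 kb for Mef2b and 130 kb for Mef2d to 242 kb for Mef2a and 263 kb for Mef2c. Per 100 kb of window, Mef2d had 5.40 shared regions, Mef2c 4.19, Mef2b 3.13 and Mef2a 0.414. By this density Mef2d stood at or above 96.2% of the protein-coding genes, Mef2c 92.4%, Mef2b 85.3% and Mef2a 33.2%. By the plain number of shared regions, Mef2c came first and stood at or above 98.1%, followed by Mef2d at 94.7%. Counts of 1 and 4 regions in single libraries have no replicate spread, and therefore the order of Mef2a and Mef2b rests on few peaks.

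**Figure D2:**
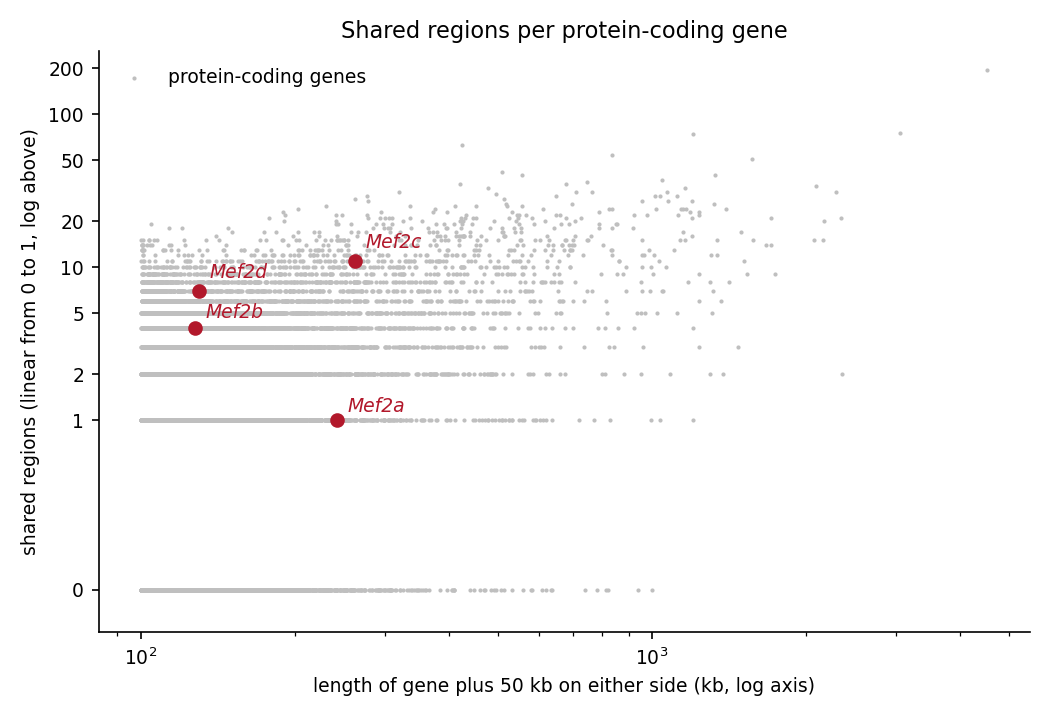
Shared regions per protein-coding gene on the y axis (linear from 0 to 1, log above) against the length of the gene with 50 kb on either side in kb on a log x axis. Each grey point is 1 of 21938 genes and the red points are the Mef2 genes. Mef2a and Mef2c have windows of similar length, 242 and 263 kb, and hold 1 and 11 shared regions.

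Mef2c, on chromosome 13 from 83504240 to 83667078 on the plus strand, has the longest gene span of the family, and no other protein-coding gene starts in its window. Of its 11 shared regions, 8 lay within the gene, 1 upstream and 2 downstream. The highest scores came from a region in intron 2 of 10, 33.0 kb from the TSS (chr13:83536877-83537556), where ab1 scored 1167, ab2 705 and ab3 100.2. Scores are on the scale of −log10 of the p-value from peak calling, multiplied by 10, and a score at or above these was reached by 7.88% of all ab1 peaks, 8.63% of all ab2 peaks and 42.6% of all ab3 peaks. The region was thus among the stronger ones for ab1 and ab2 but near the middle of the list for ab3. The second region with all 3 antibodies lay in the coding part of the last exon, 158 kb from the TSS (chr13:83661968-83663235), and here the scores were 262.5 (ab1), 347 (ab2) and 63.4 (ab3). At this site ab2 scored above ab1, in contrast to the intronic region.

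The remaining Mef2c regions had peaks of ab1 and ab2 only. The upstream region, 22.8 kb before the TSS, scored 618 and 200.1 for ab1 and ab2. In intron 1 of 10, 14.1 kb from the TSS, the scores were 538 and 206. These are the shared regions closest to the TSS on either side. Weaker binding was found deep in the gene, in intron 2 at 62.8 kb (214 and 97.4) and in intron 4 at 104 kb (143 and 71.5) and 114 kb (101.2 and 50.12), the last of which is just above the lowest score of 50 that the ab2 list holds. Higher ab1 scores were found again towards the 3′ end of the gene. A region over coding exon 10 at 152 kb scored 442 and 189.5 for ab1 and ab2, and a region in the 3′ untranslated part of exon 11 at 162 kb scored 818 and 286. Together with the region at 158 kb, 3 shared regions therefore lay over the last 2 exons of Mef2c. Downstream of the gene, 2 regions at 211 and 213 kb scored 141 and 66.8 for ab1 against 184 and 78.7 for ab2. These were closer to the noncoding gene C130071C03Rik, with distances of 6.22 and 4.52 kb, than to Mef2c.

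Mef2d, on chromosome 3 from 88142372 to 88172086 on the plus strand, is a compact gene and held the strongest peaks of the family. A region in intron 1 of 10, 8.39 kb from the TSS (chr3:88149830-88151698), had scores of 2171 (ab1), 687 (ab2) and 53.2 (ab3). Only 3.04% of all ab1 peaks scored as high, whereas 92.9% of all ab3 peaks did. A region in intron 7 of 10 at 20.2 kb (chr3:88162130-88163006) scored 1455, 539 and 54.9 for ab1, ab2 and ab3, and its midpoint lay 392 bp from the start of a shorter annotated Mef2d transcript. The 2 intronic regions were therefore strong with ab1 and ab2 and close to the detection limit with ab3. Upstream, 3.39 kb before the TSS, a region with ab1 and ab2 scored 851 and 318, and this was the shared region closest to the TSS of any Mef2 gene.

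Downstream of Mef2d lay 4 more shared regions. The highest score of the whole family, 3100 for ab1, was found 79.1 kb from the TSS (chr3:88219644-88223355), where ab2 scored 1353 and ab3 scored 166. The value of 3100 was shared by 661 ab1 peaks, so it is a tied value that does not resolve the order of the strongest peaks, and 1.41% of the ab1 peaks were at or above it. For ab2 the corresponding share was 2.93% and for ab3 22.0%. This region was 3712 bp wide. The closest annotated start of any gene was that of the small noncoding gene Gm25641 at 5.80 kb, and Mir9-1, one of the genes for the neuronal microRNA miR-9, lay 5.90 kb away; Mir9-1 was singled out after the values were seen. A region of ab1 alone (chr3:88213849-88216264), with a score of 561, covered Mir9-1 itself, and its midpoint was closest to the start of another microRNA gene, Mir3093, at 0.115 kb. By distance, the shared region at 79.1 kb is closer to Gm25641 and Mir9-1 than to Mef2d. Its closest protein-coding start is that of Rhbg at 33.2 kb, against 79.1 kb for Mef2d. At 63.0 kb, a region of 5306 bp scored 706 and 238 for ab1 and ab2, and its midpoint lay 0.766 kb from the start of the lincRNA AI849053, and Rhbg at 49.3 kb was again the closest protein-coding gene. The 2 other downstream regions had lower scores, with 137 and 126 for ab1 and ab2 at 52.4 kb and 67.8 and 109 at 56.0 kb.

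Mef2b, on chromosome 8 from 70139711 to 70167488 on the plus strand, lies in a gene-dense stretch in which 6 other protein-coding genes start. None of its 4 shared regions lay within the gene, and none was closest to its TSS. The region with all 3 antibodies lay 60.6 kb from the Mef2b TSS (chr8:70199508-70201048), closest to the start of Slc25a42, a mitochondrial carrier gene, and had scores of 843 (ab1), 669 (ab2) and 145 (ab3). As high a score was found in 11.6% of the ab1 list, 9.34% of the ab2 list and 26.1% of the ab3 list. A second region near Slc25a42, 0.128 kb from its TSS, scored 185 and 143 for ab1 and ab2. The others lay 0.280 kb from the TSS of Nr2c2ap (66.8 and 129.7) and 1.59 kb from that of Ncan, which encodes the brain proteoglycan neurocan (90.8 and 73.4). Inside Mef2b, only ab1 gave peaks, both in intron 1 of 8, with scores of 169 and 156. The longest Mef2b transcript overlaps Borcs8, which starts just before it on the same strand. The Mef2b distances given here are from the start of this transcript, and the region at 60.6 kb lay 47497 bp from the nearest annotated Mef2b start.

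Mef2a, on chromosome 7 from 67231163 to 67372858 on the minus strand, had the fewest peaks despite a span of 141696 bp. Its only shared region lay 48.8 kb upstream (chr7:67421143-67422261), with 149 for ab1 and 62.8 for ab2. The ab1 score was at the middle of its list and the ab2 score was low, since 50.1% of all ab1 peaks and 84.7% of all ab2 peaks reached them. Peaks of ab1 alone were found 42.2 kb upstream (71.4), at the TSS (53.4) and over the start of the neighbouring gene Lysmd4 (63.9), and ab2 alone gave a peak with 50.12 just beyond the 3′ end of the gene. Apart from the ab1 peak centred at the TSS, which reaches into the gene, no peak of any of the 3 antibodies lay over the Mef2a gene. The position near the edge of the window matters here, since windows of 10 kb held no shared region of Mef2a and windows of 100 kb held 4.

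Binding at the start sites depended on which starts were counted. A shared region within 1 kb of the TSS of the longest transcript was found for 0 of the 4 Mef2 genes, against 20.8% of the protein-coding genes. When the starts of all annotated transcripts were used, 1 of the 4 genes had one, Mef2d with the region in intron 7, against 24.8% of the protein-coding genes, which is close to the share in the family. Each of the 4 genes had a region of ab1 alone within 1 kb of an annotated start, a feature noticed after the values were seen. Its midpoint lay 8 bp from the start of Mef2a, 58 bp from a start of Mef2b, 2 bp from a start of Mef2c and 246 bp from a start of Mef2d. The scores were 53.4, 169, 177 and 173, respectively. Among protein-coding genes 17.5% had such a region, and genes with many annotated starts, such as Mef2c with 27, have more chances to be counted. The share of all ab1 peaks that scored at least as high was 96.1% for Mef2a, 45.9% for Mef2b, 44.5% for Mef2c and 45.1% for Mef2d. The Mef2a peak was hence among the weakest of the list, and the other 3 were close to the middle. Single-antibody regions were left out of the shared counts, and whether ab1 alone reports NEUROD2 at these sites was not tested.

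The promoter sequences of RefSeq (GRCm38.p6, 250 bases before to 50 bases after the start) were searched for the extended E-box on both strands. All 4 genes matched, with 6 promoters in total, 3 of them for Mef2c. The motif was present in 2 of the 6, both of Mef2c, against 26.3% of 32851 promoters of this length. The promoters where ab1 alone gave a peak, those of Mef2a, Mef2b and Mef2d, did not hold it in these 300 bases. The Mef2a promoter held the MEF2 element, the binding sequence of the family itself, which occurred in 3.19% of all promoters. It began 2 bases before the start site, and its 10 bases are given in capitals on the minus strand, which is the transcribed sense (chr7:67372841-67372870).
Mef2a start site: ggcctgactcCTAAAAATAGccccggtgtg
The match is a description of letters in this window, and no binding of a MEF2 protein was measured.

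Within the shared regions, 11 of 23 had the extended E-box in the central 200 bp (47.8%, 95% Wilson interval 29.2 to 67.0, which covers counting error only). Over all shared regions of the genome the share was 59.7%, inside this interval. By locus, the motif was present in 4 of 11 Mef2c regions, 4 of 7 Mef2d regions, 2 of 4 Mef2b regions and the single Mef2a region. The 6 regions with all 3 antibodies carried it in 3 cases, against 63.4% of all such regions. The highest number was found in the Mef2d region at 20.2 kb, with 3 E-boxes in the central window, 2 of which are seen in the sequence printed above. The 11 regions held 15 E-boxes in total. On one of the strands, 11 of these had GA as the middle letters of the core, 4 had GC and none had TA. Over the shared regions of the genome, the GA core made up 55.0% and the GC core 31.7% of the 28821 E-boxes, and 3850 had the TA core. The 3 E-boxes of the Mef2d region at 20.2 kb all had GA, and 15 E-boxes are too few to set these shares apart. Strong binding was not limited to regions with a central E-box, since the regions of Mef2c at 33.0 kb and of Mef2d at 8.39 kb had none in the centre and 1 and 3, respectively, in the whole region. When whole regions were searched, 19 of 23 held the motif (82.6%), against 90.3% of all shared regions.

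The MEF2 element was present in the central 200 bp of 1 of the 23 shared regions (4.35%), in intron 2 of Mef2c at 62.8 kb, where 2 E-boxes lay in the same window. Over all shared regions the share was 1.68%. The GC content of the central windows had a median of 51.5% (37.0 to 63.5%) at the Mef2 loci and of 51.0% over all shared regions. The Mef2 regions were 612 to 5306 bp wide with a median of 1046 bp, against a median of 865 bp over the genome. The 7 Mef2d regions were the widest, with a median of 1792 bp, and the 11 Mef2c regions the narrowest of the 3 loci that held several, with a median of 753 bp.

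The antibodies differed in the regions they gave and in their scores. Of the 40 regions, 23 were shared and 17 had a peak of 1 antibody only, and over the genome 32261 of 53833 regions were shared. In 18 of the 23 shared regions the score of ab1 was above that of ab2, and over the genome this was so for 89.0% of the regions with both antibodies. The 5 exceptions were 3 regions at the 3′ end or downstream of Mef2c, 1 region of Mef2b and 1 of Mef2d. Scores of ab1 ranged from 66.8 to 3100 with a median of 262, those of ab2 from 50.12 to 1353 with a median of 190. Over all shared regions the medians were 278 and 140. A peak of ab3 was present in 6 of the 23 shared regions, all with peaks of the 3 antibodies. Over the genome, 7160 of the 32261 shared regions had all 3. The ab3 scores ranged from 53.2 to 166 with a median of 81.8, and in each of the 6 the ab3 score was below that of ab1. The order of the regions also differed between antibodies. With ab3 the Mef2b region at 60.6 kb was second of the 6 with 145, whereas with ab1 it ranked next to last among them with 843. The scores were not scaled between libraries, and thus differences between antibodies in one region are not differences in binding.

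**Figure D3:**
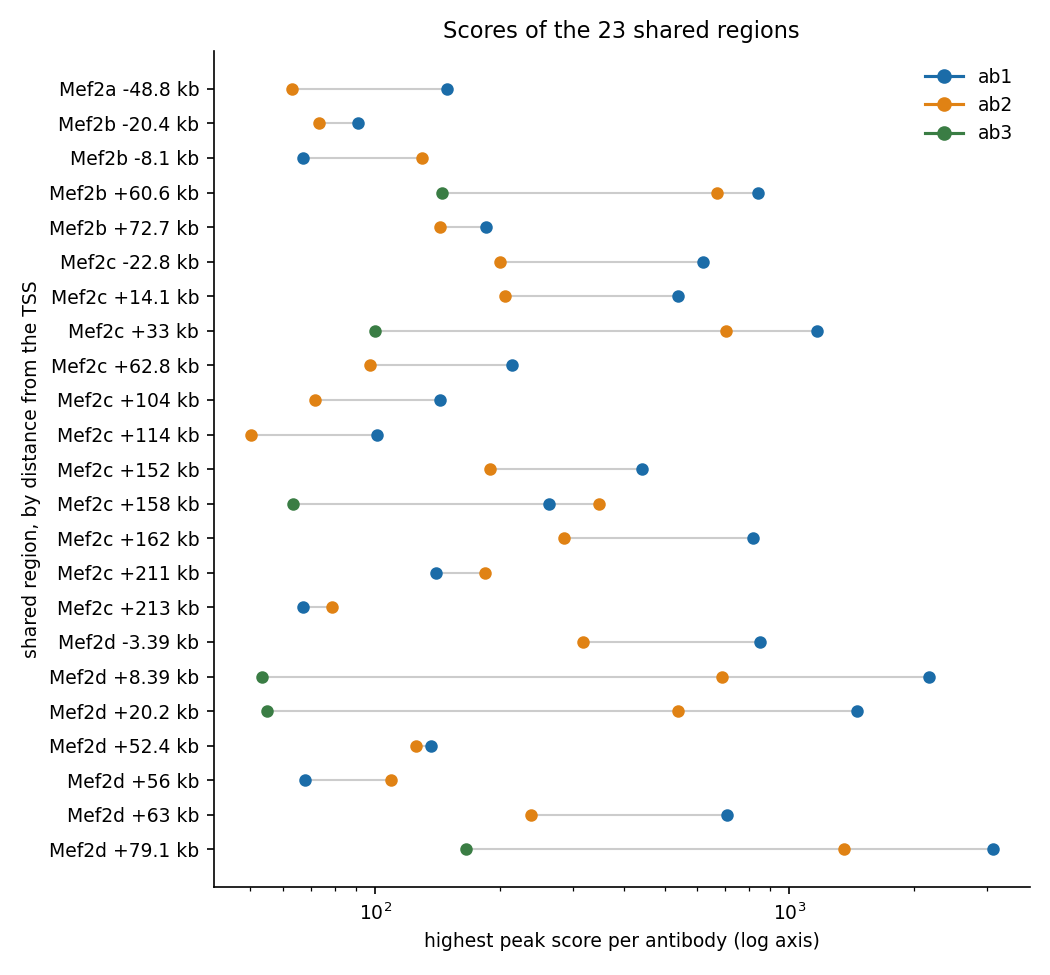
Highest peak score of each antibody (log x axis) in the 23 shared regions (y axis, by gene and distance from the TSS in kb). Points are coloured by antibody and joined within a region. The point for ab1 lies to the right of that for ab2 in 18 regions, and ab3 is present in 6, always to the left of ab1.

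Distance to the nearest start site gives another view of which gene a region may belong to. Of the 23 shared regions, 17 were closer to the TSS of a Mef2 gene than to that of any other protein-coding gene, with 11 for Mef2c, 5 for Mef2d, 1 for Mef2a and 0 for Mef2b. When noncoding genes and pseudogenes were included, 6 remained, 4 for Mef2c and 2 for Mef2d, and 5 of the Mef2c regions were then closest to the processed pseudogene Gm48067 downstream of the gene. This holds for the start of the longest transcript only. The same 5 regions lay 3425 to 17206 bp from an annotated start of another Mef2c transcript, nearer than the 20972 to 78825 bp to Gm48067, and the Mef2d region at 20.2 kb lay 392 bp from a Mef2d start. A score was calculated for each protein-coding gene by summing its closest regions, each weighted down with distance (exponential decay, constant 5000 bp). This score was 0.712 for Mef2d, at or above 79.6% of the genes, and 0.0718 for Mef2c, at or above 71.0%. For Mef2a it was 0.0000594 and for Mef2b 0. Mef2d thus ranked before Mef2c by proximity, and Mef2c before Mef2d by number of regions. As many as 25 shared regions were assigned to Mef2c in this way, more than the 11 in its window, because the protein-coding genes around it are far away.

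Protein-coding genes with the most similar peak counts were searched among genes with a span within 1.5 times that of each member, by the distance between log2(count + 1) of their peaks with each antibody, that is over 3 libraries. Mef2c, with 16, 11 and 2 peaks, was closest to Pdzrn3 (17, 11 and 2), Mapkap1 (15, 11 and 2) and Itprid1 (15, 11 and 2), with distances of 0.0825, 0.0875 and 0.0875. Mef2d, with 14, 7 and 3 peaks, was matched exactly by Dgkz and nearly by Tph1 (13, 7 and 3) and Medag (13, 8 and 3). Their scores differed more than their counts, since the peak scores summed to 13848 for Mef2d and 5274 for Dgkz. Mef2b, with 7, 4 and 1 peaks, was matched exactly by 12 genes, of which Polr3a, Anapc15 and Grin1 had the nearest summed scores, and Mef2a, with 4, 2 and 0, by 35 genes, led by Lmbr1, Akap2 and Cep83. Likeness in these counts holds no information on position or function.

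NEUROD2 regions were also counted at 26 genes that regulate, assist or follow MEF2 proteins. Of these, 24 (92.3%) had at least 1 shared region, against 67.6% of the protein-coding genes, 10 (38.5%) had a region with all 3 antibodies, against 26.7%, and 8 (30.8%) had a shared region within 1 kb of the TSS, against 20.8%. The median number of shared regions was 3.00 in the list and 1.00 over all protein-coding genes. Several genes of the list are long, and no test of the list was made. Without ab1, 10 of the 26 had a region shared by the other antibodies, and without ab2 this number was also 10. It equals the number with a region of all 3 antibodies, and the share of all protein-coding genes was not counted under these settings.

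All 4 class IIa histone deacetylases, the repressors of MEF2 proteins, had shared regions (67.6% of the protein-coding genes did), from 3 at Hdac7 to 8 at Hdac4, where 1 lay 0.144 kb from the TSS. By density, Hdac5 stood at or above 95.8% of the protein-coding genes, Hdac4, with a window of 352 kb, 74.3%, Hdac7 71.6% and Hdac9, with a window of 921 kb, 33.4%. Of the 10 upstream kinases and calcineurin subunits, 9 had shared regions, and 7 had a region with all 3 antibodies, against 67.6% and 26.7% of the protein-coding genes. These 7 made up most of the 10 genes of the list with such a region, since 1 of the 4 histone deacetylases, 1 of the 5 cofactors, 1 of the 6 neuronal targets and not Srf had one. The highest number was found at Sik1, a kinase that acts on class IIa histone deacetylases, with 13 shared regions, 5 of them with all 3 antibodies, and a highest score of 2900.02. Its density of 11.7 per 100 kb was at or above that of 99.8% of the protein-coding genes. At the other end, Ppp3r1, the regulatory subunit of calcineurin, had none. Among the 5 cofactors and corepressors, Cabin1, which represses MEF2 and calcineurin, had 5 shared regions and the acetyltransferase gene Ep300 had none. Srf, which encodes the related MADS factor serum response factor, had 2, the closer one 2.80 kb from the TSS.

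All 6 neuronal targets had a shared region, against 67.6% of the protein-coding genes. By density Nr4a1 stood at or above 76.5% of these genes, Arc 70.1%, Pcdh10 69.2%, Jun 51.7%, Bdnf 36.5% and Homer1 34.0%. Nr4a1 and Pcdh10 had 3 shared regions, whereas Bdnf, Homer1 and Jun had 1. Nr4a1 encodes an activity-induced nuclear receptor and Pcdh10 an adhesion protein. The highest score at Pcdh10 was 389 and that at Nr4a1 559. Bdnf, the gene of the neurotrophin, had its region 3.12 kb from the TSS with a score of 498, and the Jun region lay 0.258 kb from the TSS and scored 604. The only region of Homer1, which encodes a scaffold of the synapse, had peaks of all 3 antibodies with a highest score of 1595, but lay 149 kb from the TSS.

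**Figure D4:**
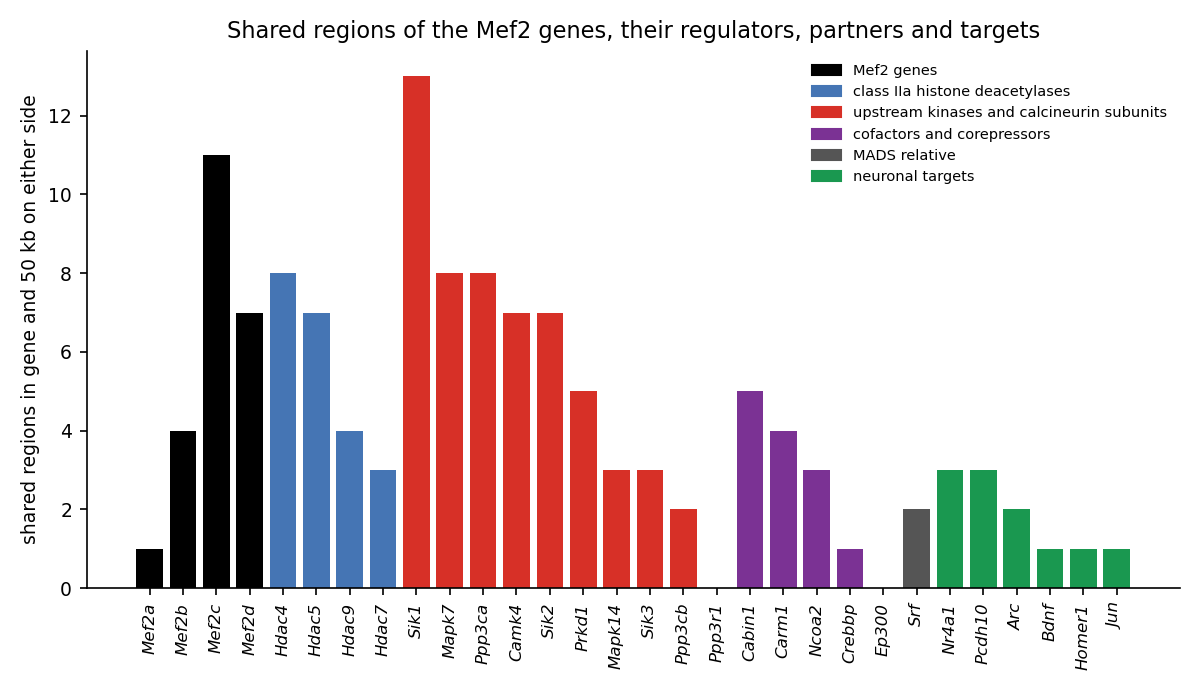
Number of shared regions (y axis, from 0) in each gene with 50 kb on either side, for the Mef2 genes in black and for 26 regulators, partners and targets coloured by class. Sik1 has the most with 13, Mef2c has 11, and Ppp3r1 and Ep300 have none.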

How the data were processed

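NEUROD2 binding was measured in E14.5 BALB/c mouse cortex with 1 ChIP-Seq library per antibody. The authors mapped single-end reads to mm10 with Bowtie, discarded duplicated and multi-mapping reads, and called peaks with MACS for each antibody, with the GFP library from the matching host as control, so that ab2 and ab3 share a control. The deposited score of each peak is 10 times the −log10 of the p-value, from MACS, and is not scaled between libraries. The lowest score in the lists was 50, a p-value of 1e-05.

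On each of the 21 chromosomes of GRCm38 the peaks ended within its length, and 5 peaks on other sequences were not used for regions. Peak starts were converted to count from 1. Peaks were merged at an overlap of at least 1 bp, and a region was called shared with peaks of at least 2 antibodies. TSSs and spans came from the longest-span transcript of each gene in GENCODE release M21, and 21938 protein-coding genes were counted by the same rule. The extended E-box and the MEF2 element (by its usual 10-base consensus) were searched on both strands, and a position found on both was counted as 1. The reference is of the C57BL/6J strain, so variants of BALB/c were not seen.

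The text names the 4 members, genes starting in their windows or closest to their regions, the 3 genes with the most similar counts for each member, and the genes with the most and the fewest shared regions in each class of the list. For density, the other histone deacetylases and neuronal targets are named as well. The members and lists were chosen with earlier results of these data known. From the list, 1 further gene is not reported here and enters none of the counts over the 26 genes. Counting was tested on simulated data. Alternatives were a score minimum of 100, an overlap of 50% of the shorter peak, each antibody left out, windows of 0, 10 and 100 kb, and other E-box and TSS definitions. Reads, controls and the study's score tables were not used here. Python 3.11.15, numpy 2.4.6, scipy 1.17.1, pysam 0.24.0 and matplotlib 3.10.9 were used.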

Additional observations from a re-analysis of the deposited data

How the results depend on the processing

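Of 67 values under the alternatives, 41 kept within 1.5 times the count reported (or, for the E-box share, within its interval) and 26 did not. No paired analysis was possible because the GFP samples, which share numbers with NEUROD2 samples, were not analysed here and no result comes from a test. An overlap of 50% of the shorter peak moved no value. With a peak score of at least 100, the shared regions were 0 for Mef2a, 2 for Mef2b and 7 for Mef2c, and those of all 3 antibodies were 3 over the family. With each antibody left out, the shared regions ranged from 0 to 1 for Mef2a, 1 to 4 for Mef2b, 2 to 11 for Mef2c and 3 to 7 for Mef2d. The low values, without ab1 or without ab2, are the counts of regions with all 3 antibodies. Regions of both remaining antibodies, in place of all 3, ranged from 6 to 23, and the genes of the list of 26 with a shared region from 10 to 24. Windows that ended at the gene held 0, 0 and 2 shared regions of Mef2a, Mef2b and Mef2d, windows of 10 kb held 0, 1 and 3, and windows of 100 kb held 4 for Mef2a, 21 for Mef2c and 12 for Mef2d. With any annotated transcript, 1 Mef2 gene had a shared region within 1 kb of a TSS. The E-box share rose to 82.6% in whole regions, and with any CANNTG it was 65.2%, against 83.6% of all shared regions. Few peaks per locus and 1 library per antibody limit all counts.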

Other observations

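Between 50 and 100 kb from the genes lay 19 further shared regions, 10 of them downstream of Mef2c, 5 downstream of Mef2d, 3 upstream of Mef2a and 1 upstream of Mef2b. At Mef2c several of them lay close to Mir9-2, 71.7 kb beyond the gene, which was singled out after the values were seen. The strongest of these 10 lay at chr13:83720790-83723197, 0.612 kb from the start of the noncoding gene C130071C03Rik, with scores of 1664 for ab1, 373 for ab2 and 73.7 for ab3. Both Mef2c and Mef2d thus have a miR-9 gene downstream, at 71.7 and 43.5 kb from the gene end, and the nearest shared regions lay 0.954 and 5.90 kb from it, while a region of ab1 alone, with a score of 561, covered the miR-9 gene beside Mef2d. Beside Mef2d, a second region with an ab1 score of 3100 lay at chr3:88224575-88229580, with 1356 for ab2 and 559 for ab3.

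Upstream of Mef2a, a region with all 3 antibodies lay 68.2 kb from the TSS at chr7:67440606-67441494, outside the window of 50 kb. Its scores were 2367 (ab1), 1471 (ab2) and 192.8 (ab3), against 149 and 62.8 for ab1 and ab2 in the only shared region inside the window. The closest start site was that of the noncoding gene Gm33926 at 2.88 kb. Whether these regions act on Mef2 genes or on their noncoding neighbours was not tested.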
